A study of Macaca mulatta with 20 samples.

Results

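The nuclear genes of the mitochondrial respiratory chain and of ATP synthase were followed in 20 corpora lutea of rhesus macaques, 1 array per corpus luteum. Members were all genes whose array annotation symbol starts with NDUF, UQCR, COX4, COX5, COX6, COX7, COX8 or ATP5, or is SDHA, SDHB, SDHC, SDHD or CYC1, taken from probe sets annotated to a single symbol. This gave 65 of 14132 genes: 24 subunits of complex I, 6 complex I assembly factors, 3 subunits of complex II, 7 of complex III, 10 of complex IV and 15 genes of ATP synthase (complex V). Where a gene had several probe sets, as 31 members did, its brightest probe set, by the mean of all 20 arrays, stood for it. COX4I1, COX6A1 and NDUFB8 are annotated only on probe sets shared with other symbols and have no value here. ATP5G1 is the older name of ATP5MC1 in human nomenclature. The annotation lists both symbols, the identifier behind ATP5G1 matched no gene of the current table, and they are counted as 2 members.

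The corpus luteum is the gland left by the ovulated follicle, which makes progesterone. Tissue came from females with normal menstrual cycles, and the labels name no treatment beyond daily blood sampling. There were 5 stages with 4 corpora lutea each, dated in days after the midcycle LH surge. The early stage covered days 3 to 5, when the gland forms, and the mid stage days 7 to 8, when progesterone production peaks. The mid-late stage covered days 10 to 12, before regression. The late stage covered days 14 to 16, when progesterone secretion ends. The very-late stage covered days 18 to 19, at menses, when the gland is broken down. Each array holds RNA of the whole gland. Fewer cells of a type and less RNA per cell therefore cannot be told apart.

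As background, complexes I and II pass electrons from NADH and succinate to ubiquinone, complex III passes them to cytochrome c, and complex IV passes them to oxygen. Complexes I, III and IV pump protons across the inner mitochondrial membrane, and ATP synthase uses that gradient to make ATP. In steroid-producing cells the mitochondrion also holds the first step of steroid synthesis, the cleavage of the cholesterol side chain. A small set of subunits of complexes I, III, IV and V is encoded in mitochondrial DNA. All other subunits come from nuclear genes. The members described here are such genes with a value, together with the complex I assembly factors and ATP5IF1, an inhibitor of ATP synthase.

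Values are log2 RMA values, and a difference is always the later stage minus the earlier stage. An adjusted p under 0.05 in limma, adjusted over 52707 probe sets, counts as past the test. Array medians lay between 3.88 and 3.98, and arrays of a stage correlated at r = 0.964 to 0.995 across probe sets. The 3' minus 5' difference of the GAPDH control probe sets was 2.695 on very-late replicate 1, against 0.831 to 1.78 on the other arrays. For actin the same difference on that array was at 0.117, within the range of the others. Marker genes moved strongly between stages. The mean log2 level of 4 steroidogenic markers (STAR, HSD3B2, INHA and CYP19A1) was 11.54 in the early, 12.17 in the mid, 12.10 in the mid-late, 11.48 in the late and 7.44 in the very-late stage, with the very-late arrays between 6.38 and 8.40. That of 8 macrophage markers was 7.35, 6.51, 7.01, 8.14 and 9.82 in the same order, with the very-late arrays between 9.49 and 10.51. The 4 steroidogenic markers did not move alike before the very-late stage. At late against early HSD3B2 differed by -2.65 (adjusted p = 0.000324, limma) and CYP19A1 by 2.03 (adjusted p = 0.011). STAR (0.17) and INHA (0.24) did not pass there. At mid against early CYP19A1 differed by 1.96, INHA by 0.59, STAR by 0.06 and HSD3B2 by -0.08, none past the test. The part of these marker shifts in the results below was not tested.

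Averaged over the 65 members, the level was lowest in the very-late stage. Centred on its own mean over the 20 arrays and averaged over the members, the level was 0.13 ± 0.11 in the early stage, 0.09 ± 0.08 in the mid stage, 0.11 ± 0.05 in the mid-late stage, 0.01 ± 0.12 in the late stage and -0.34 ± 0.09 in the very-late stage (log2, SD, n = 4 each). The 4 very-late arrays had levels of -0.36, -0.24, -0.45 and -0.32. All of them lay below the lowest of the other 16 arrays, late replicate 1 at -0.14. In the F test over the 5 stages, 43 of the 65 members passed, against 21.5% of all probe sets and 33.6% of the 14132 genes. Of genes with a mean of at least 8, 37 of 52 members (71.2%) and 62.8% of all such genes passed, so the members' share in this test was near that of other bright genes. The very-late stage had the lowest mean of 39 of the 43 members. How many of the other genes past the F test were lowest there was not counted. In 20 members (30.8%) all 4 very-late arrays were below all other 16 arrays, which held for 6.25% of all genes. Most members are bright genes, so both shares are also given for genes with a mean of at least 8: 18 of 52 members (34.6%) and 18.2% of the 2094 genes of that brightness. COX8A was the 1 member with all 4 very-late arrays above the other 16.

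**Figure D1:**
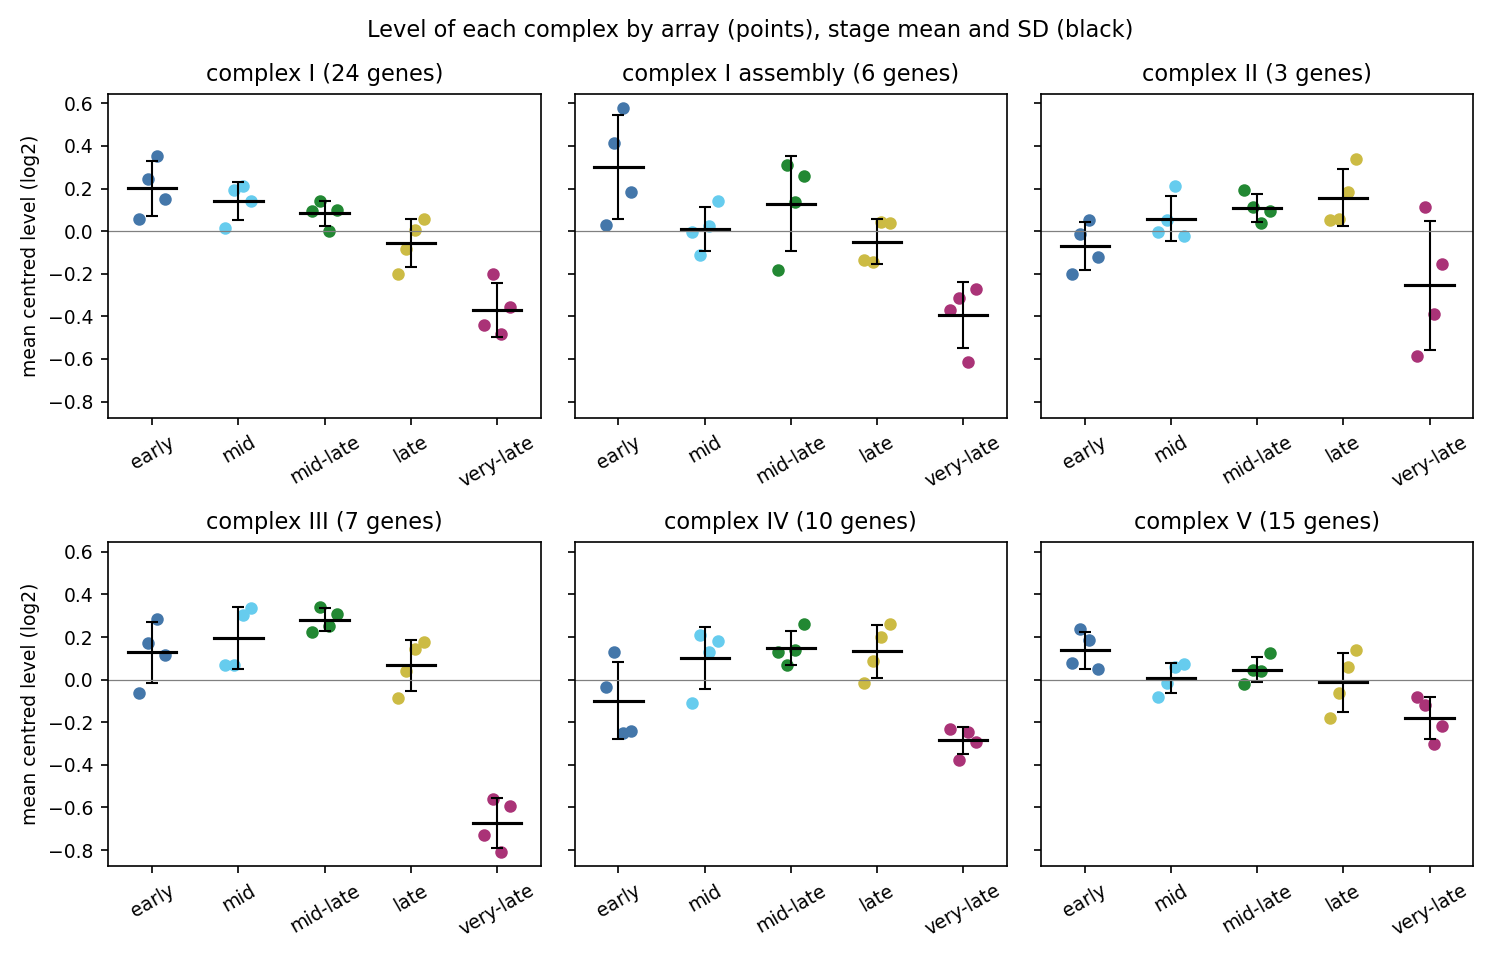
Level of each complex on each array: the y axis is the log2 value of every gene minus its own mean over the 20 arrays, averaged over the genes of the complex, and the x axis is the stage (coloured points are arrays, black bars the stage mean and SD, n = 4). Complex III has the lowest very-late arrays, between -0.81 and -0.56, while complex V reaches between -0.30 and -0.08.

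The comparison of the very-late with the early stage set the regressing gland against the forming one. In it 39 of 65 members were lower and 2 were higher, against 9.21% of all probe sets lower and 9.45% higher. The median difference over the 65 members was -0.46, against -0.01 over all genes. Among genes with a mean of at least 8, 35 of 52 members (67.3%) and 38.4% of all such genes were lower, with medians of -0.50 and -0.22. By complex, 19 of 24 complex I subunits, 4 of 6 assembly factors, 1 of 3 complex II subunits, 5 of 7 complex III subunits, 4 of 10 complex IV genes and 6 of 15 complex V genes were lower. The shares in complexes IV and V were near the 38.4% of all genes with a mean of at least 8. Compared with the late stage, 30 members were lower and 2 higher in the very-late stage, against 7.03% and 6.75% of all probe sets. The median difference was -0.32. Of genes with a mean of at least 8, 26 of 52 members (50%) and 28.4% of all such genes were lower.

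**Figure D2:**
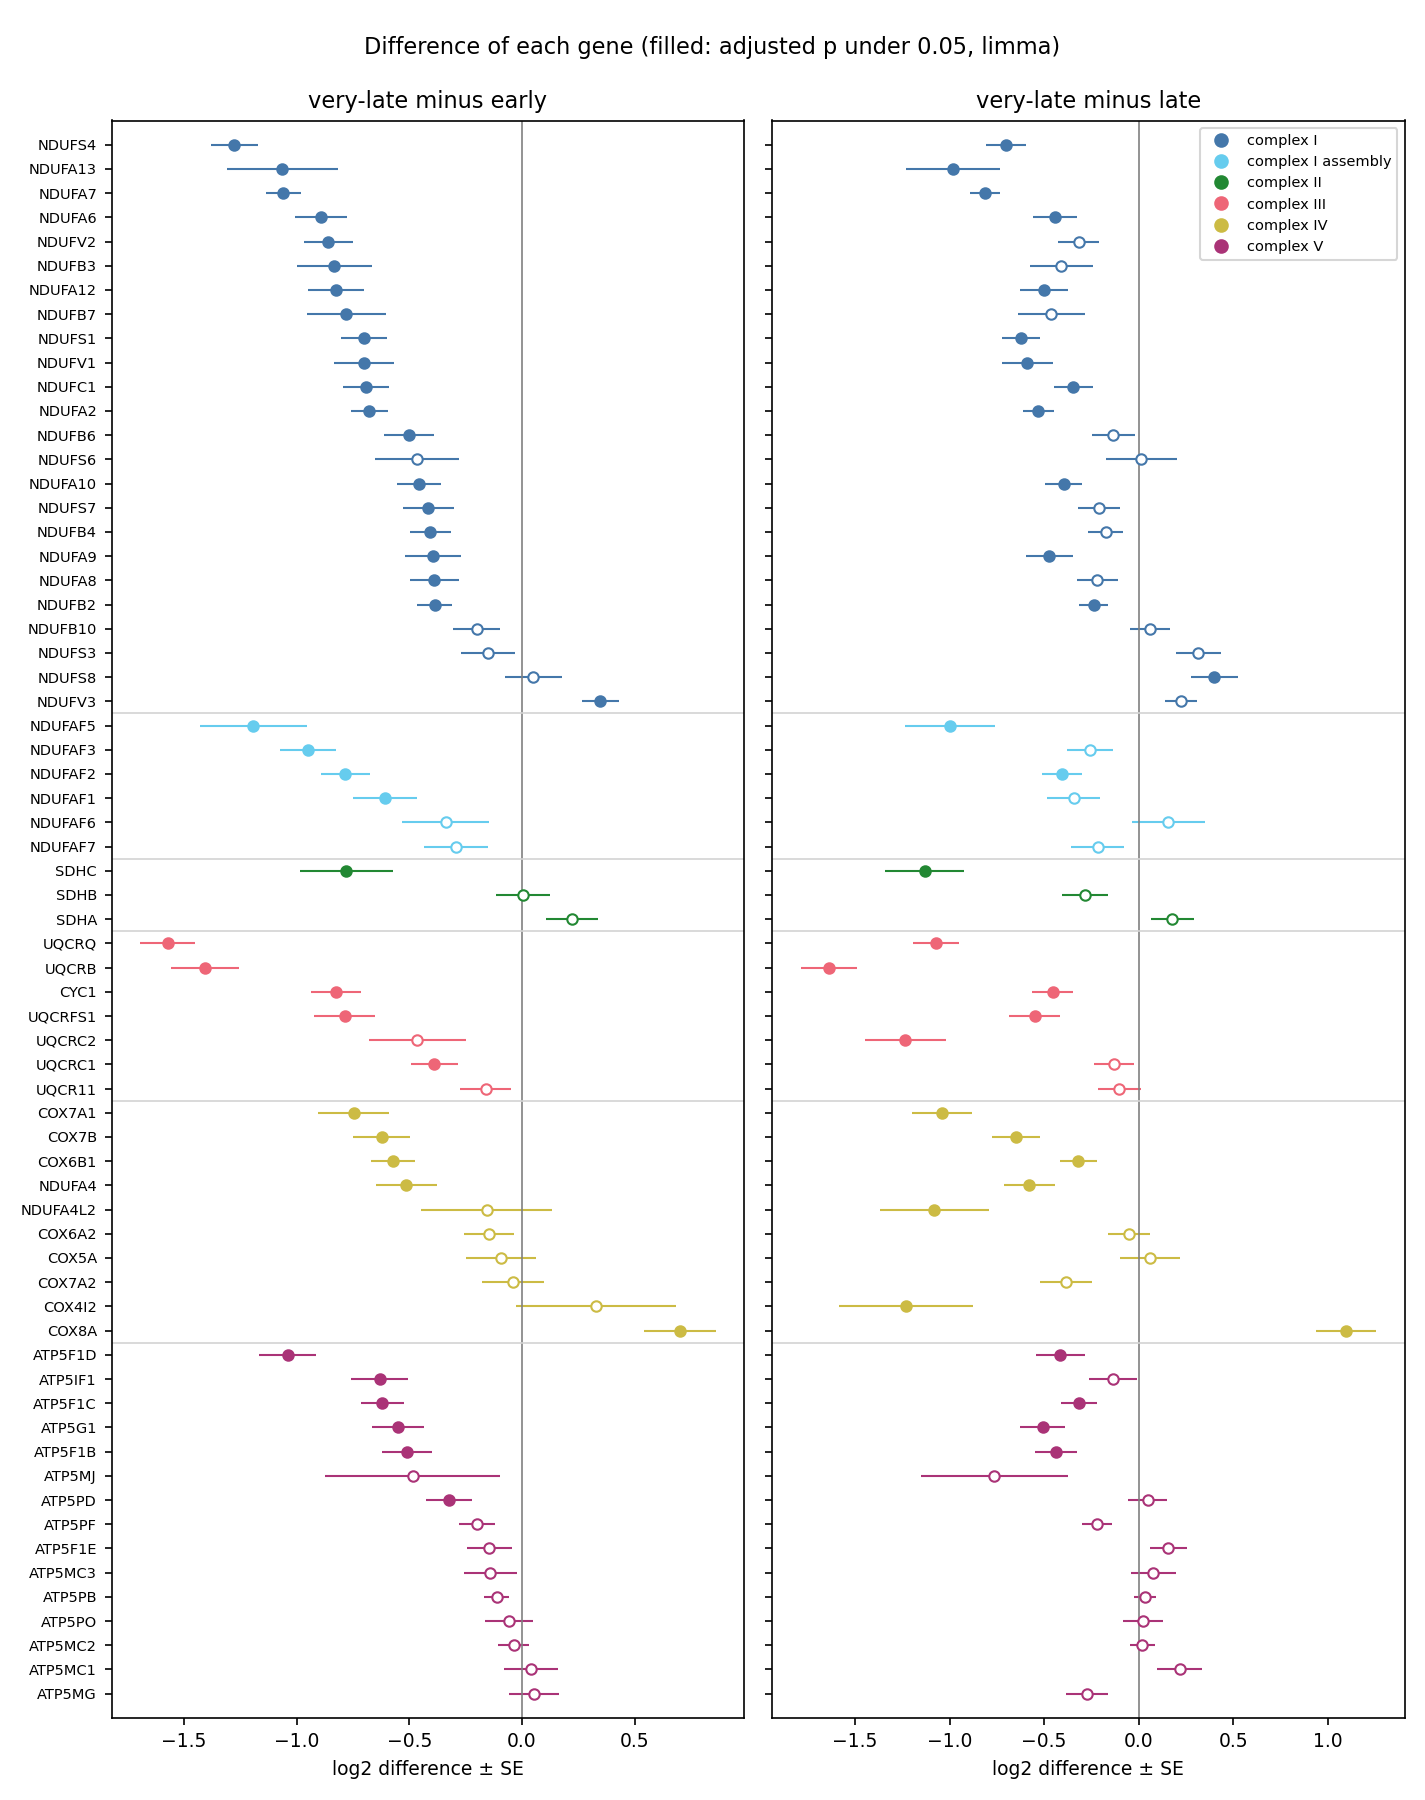
Log2 difference of each of the 65 genes (x axis, point with its standard error), very-late minus early on the left and very-late minus late on the right, grouped by complex down the page; filled points passed an adjusted p of 0.05 in limma. Most complex I and III points lie left of 0, COX8A lies at 0.70 and 1.10 on the right of it, and most of the ATP5M and ATP5P genes lie near 0.

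Complex I, which takes electrons from NADH, was lower in the very-late stage through most of its measured subunits, in its catalytic core and around it. Of the 6 core subunits, 4 were lower in the very-late than in the early stage, against 38.4% of all genes with a mean of at least 8. The 4 include NDUFV2, whose direction is uncertain. NDUFS1, the largest subunit, which carries iron-sulfur clusters, read 9.09, 9.16, 8.80 and 9.23 in very-late arrays, against 9.59, 9.90, 9.96 and 9.64 in early arrays. The stages did not overlap, and the difference was -0.70 ± 0.10 (SE, adjusted p = 5.77e-05). NDUFV1, which binds NADH and the flavin, read 7.41, 8.10, 8.05 and 7.70 in very-late arrays, against 8.52, 8.60, 8.56 and 8.38 in early arrays. These did not overlap either (-0.70 ± 0.13, SE, adjusted p = 0.000947). NDUFV2, its partner in the NADH-oxidising module, was also lower by its brighter probe set (-0.86 ± 0.11, SE, adjusted p = 1.33e-05), but its other probe set went the opposite way, as described further on. NDUFS7 was lower by 0.42 with overlapping stages (very-late 9.02 to 9.44, early 9.41 to 9.88). Its dimmer probe set differed by -0.115 and did not pass (adjusted p = 0.823, limma). The core subunits NDUFS3 and NDUFS8 differed by -0.15 and 0.05 from the early stage and did not pass. NDUFS8 was past the test against the late stage, where it was 0.40 ± 0.13 higher (SE, adjusted p = 0.0403), with very-late arrays at 9.0, 9.40, 8.73 and 8.82 and late arrays at 8.37, 8.51, 8.75 and 8.73. That call was lost without very-late replicate 1 (adjusted p = 0.0781), without very-late replicate 2 (0.265, adjusted p = 0.139), and without late replicate 1, late replicate 2 or mid replicate 3.

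Of the 18 accessory subunits of complex I, which surround the core and take no part in electron transfer, 15 were lower in the very-late than in the early stage. NDUFS4, a subunit needed to join the NADH module to the rest of the complex, had the widest difference in complex I. Its very-late arrays read 8.80, 8.71, 8.55 and 8.52, against 9.64, 10.04, 10.06 and 9.95 in early arrays. That is 2.42-fold lower (-1.28 ± 0.10, SE, adjusted p = 9.24e-08), and 0.70 lower than in the late stage, whose arrays read 9.26, 9.26, 9.37 and 9.51. NDUFA7 read 8.09, 8.35, 8.18 and 8.39 in very-late arrays, against 9.16, 9.37, 9.42 and 9.29 in early and 8.96, 9.03, 9.16 and 9.11 in late arrays. All very-late arrays were below both other stages, by 1.06 ± 0.08 against early (SE, adjusted p = 3.28e-08) and by 0.81 ± 0.08 against late (SE, adjusted p = 1.17e-06). NDUFA13, also known as GRIM-19, read 8.24, 9.68, 9.74 and 9.90 in very-late arrays, against 10.47, 10.31, 10.70 and 10.33 in early arrays. Very-late replicate 1 was far below the other arrays, and without it the difference was -0.68 in place of -1.06, still past the test. Against the late stage it was -0.60 without that array, in place of -0.98. The other 12 lower accessory subunits differed from the early stage by -0.89 (NDUFA6) to -0.39 (NDUFB2). NDUFB10 and NDUFS6 did not pass, with differences of -0.20 and -0.46. NDUFV3 was 0.35 higher, but its values of 4.43 to 4.65 in very-late and 4.17 to 4.24 in early arrays are close to the array medians.

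The assembly factors of complex I are not part of the finished enzyme. NDUFAF5, which modifies NDUFS7 during assembly, read 5.27, 5.72, 5.55 and 6.08 in very-late arrays, against 6.36, 6.89, 7.32 and 6.82 in early and 6.71, 6.59, 6.73 and 6.57 in late arrays. The very-late arrays were below both (-1.19 ± 0.24, SE, adjusted p = 0.00121 against early, and -0.997 ± 0.236, SE, adjusted p = 0.00707 against late). Without very-late replicates 1 and 2 the call against late was lost (-0.84, adjusted p = 0.0881). NDUFAF3, NDUFAF2 and NDUFAF1 were lower than in the early stage by 0.95, 0.78 and 0.61. NDUFAF6 and NDUFAF7 did not pass, with differences of -0.34 and -0.29.

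Complex II, succinate dehydrogenase, also belongs to the citric acid cycle. Its subunits did not move alike. SDHC, a membrane anchor, read 6.62, 8.04, 7.64 and 7.85 in very-late arrays, against 8.56, 8.52, 8.72 and 8.88 in late and 8.19, 8.27, 8.33 and 8.48 in early arrays. It was 1.13 ± 0.21 lower than in the late stage (SE, adjusted p = 0.000862) and 0.78 ± 0.21 lower than in the early stage (SE, adjusted p = 0.0114). Without very-late replicate 1, the lowest array, the difference from the early stage was -0.47, still past the test. SDHA, the flavoprotein that oxidises succinate, read 9.79, 9.91, 9.54 and 9.74 in very-late arrays, against 9.43, 9.66, 9.71 and 9.29 in early arrays. SDHB, the iron-sulfur subunit, read 8.92, 9.49, 8.74 and 9.05 in very-late arrays, against 8.87, 9.12, 9.21 and 8.97 in early arrays. For both, these stages overlapped and no comparison passed the test in the fit on 20 arrays. In a fit without the very-late arrays SDHB was past the test at late against early (0.287, adjusted p = 0.0398), as was SDHC (0.353, adjusted p = 0.0385). SDHD has no value here.

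Complex III, the cytochrome bc1 complex, held the member with the widest difference in each very-late comparison, UQCRQ against early and UQCRB against late. UQCRQ, a small subunit near the ubiquinone-binding part, read 10.17, 10.09, 9.90 and 9.98 in very-late arrays, against 11.27, 11.59, 11.89 and 11.69 in early and 10.77, 11.14, 11.30 and 11.22 in late arrays. It was 2.97-fold lower than in the early stage (-1.57 ± 0.12, SE, adjusted p = 4.7e-08) and 2.10-fold lower than in the late stage (-1.07 ± 0.12, SE, adjusted p = 6.52e-06). UQCRB, a ubiquinone-binding subunit, read 4.55, 4.35, 4.56 and 5.28 in very-late arrays, against 6.08, 6.25, 5.97 and 6.08 in early and 6.15, 6.30, 6.34 and 6.5 in late arrays. Its differences of -1.41 ± 0.15 and -1.64 ± 0.15 (SE, adjusted p = 1.99e-06 and 6.18e-07) end in values close to the array medians. In a fit without the very-late arrays UQCRB was higher than early at mid (0.584, adjusted p = 0.0139) and mid-late (0.438, adjusted p = 0.0166). At late it did not pass in that fit (0.229, adjusted p = 0.183). CYC1, the haem-carrying cytochrome c1, read 9.83, 9.68, 9.42 and 9.63 in very-late arrays, against 10.20, 10.45, 10.82 and 10.39 in early arrays. All very-late arrays were below them (-0.82 ± 0.11, SE, adjusted p = 2.41e-05). UQCRFS1, the Rieske iron-sulfur protein, was 0.79 ± 0.14 lower (SE, adjusted p = 0.000362). UQCRC1, a core protein, was 0.39 lower (adjusted p = 0.0137), with very-late replicate 2 at 10.46 inside the early range of 10.32 to 10.50. Without very-late replicate 1 its call was lost (-0.305, adjusted p = 0.0544).

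UQCRC2, the other core protein of complex III, was the 1 member of the 7 called higher at mid-late and late. Its early arrays read 9.37, 9.47, 9.66 and 9.62. The mid arrays spread widely, at 9.76, 9.21, 10.13 and 10.22. The mid-late arrays read 10.32, 10.29, 10.57 and 10.45, the late arrays 10.13, 10.26, 10.35 and 10.47, and the very-late arrays 8.31, 9.42, 9.26 and 9.28. It was thus higher than in the early stage at mid-late (0.88 ± 0.21, SE, adjusted p = 0.0284) and late (0.77 ± 0.21, SE, adjusted p = 0.0334), with no overlap. At very-late it was 1.24 ± 0.21 below the late stage (SE, adjusted p = 0.000532) and did not pass against the early stage (-0.46, adjusted p = 0.1605). Both rises missed the threshold when any 1 of the 4 early arrays was left out, at adjusted p = 0.0542 to 0.0661 for mid-late and 0.0584 to 0.0791 for late. The rise at mid-late was also lost without mid-late replicate 1, 3 or 4, and the rise at late without late replicate 2, 3 or 4.

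**Figure D3:**
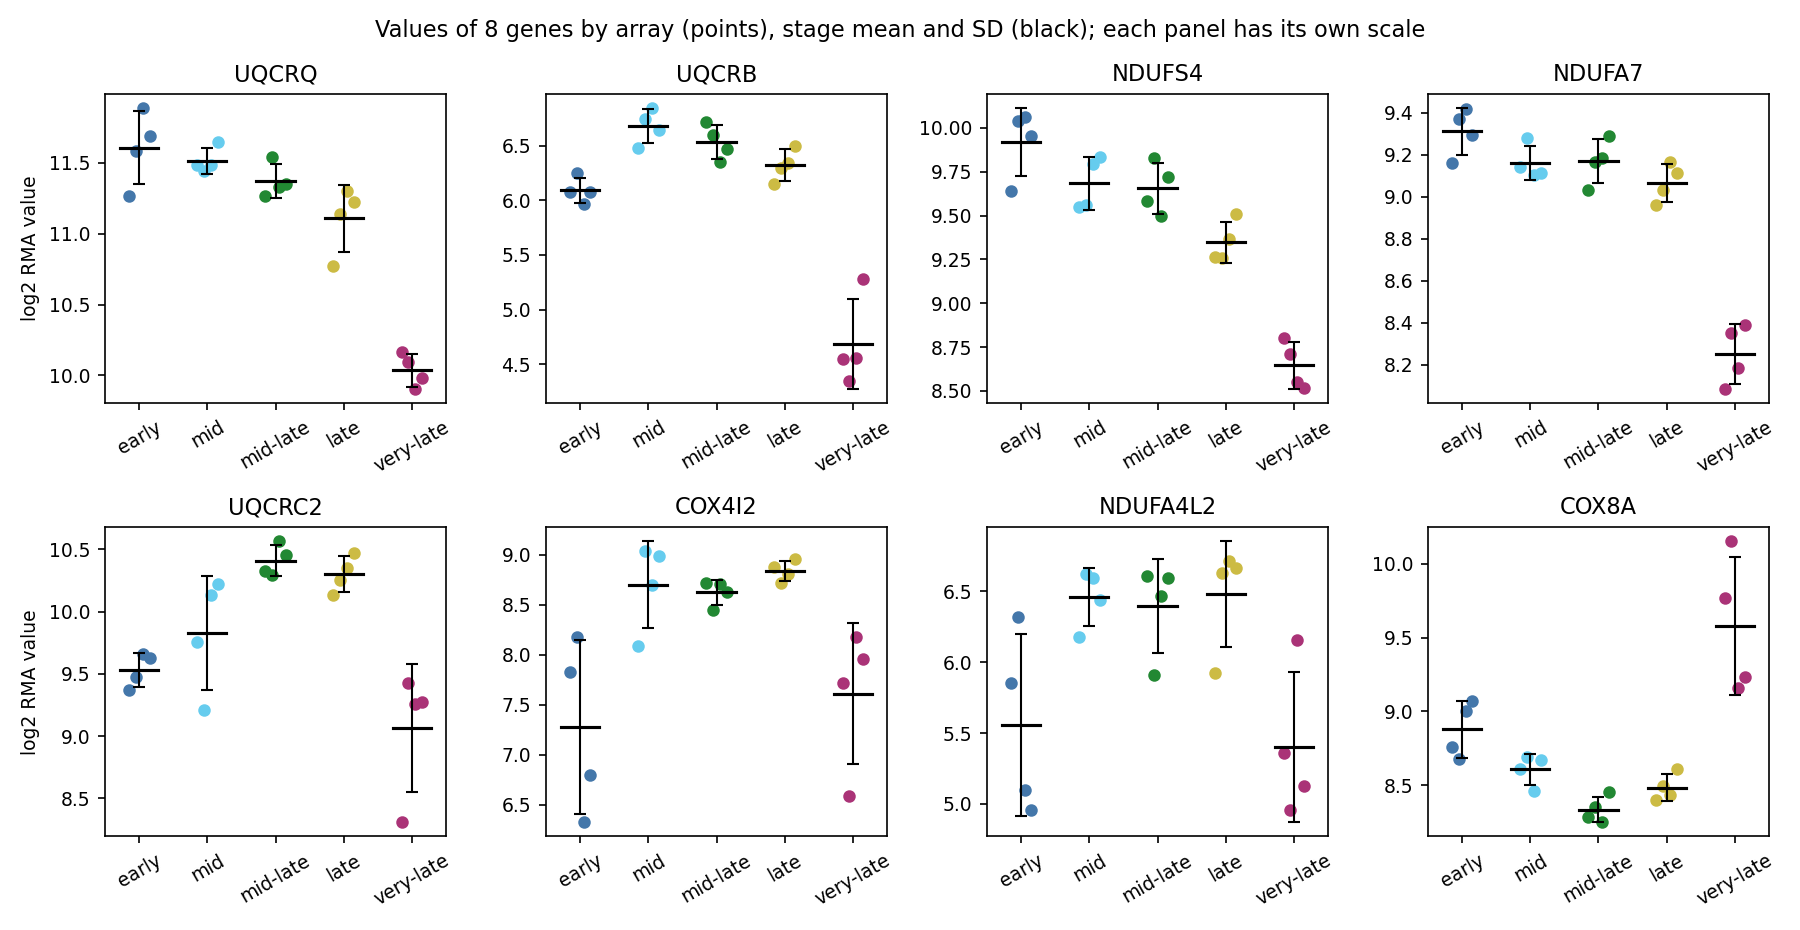
Log2 RMA values of 8 genes on each array (points) by stage, with the stage mean and SD in black (n = 4); each panel has its own y scale. UQCRQ, UQCRB, NDUFS4 and NDUFA7 are lowest in the very-late stage, UQCRC2, COX4I2 and NDUFA4L2 are highest between the mid and late stages, and COX8A is highest in the very-late stage.

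Complex IV, cytochrome c oxidase, held genes that moved in opposite directions. Among the 6 subunits that most tissues share, COX7B, COX6B1 and NDUFA4 were lower in the very-late than in the early stage. COX7B read 9.79, 10.21, 9.59 and 9.84 in very-late arrays, against 10.55, 10.69, 10.29 and 10.39 in early arrays (-0.62 ± 0.13, SE, adjusted p = 0.00152). COX6B1, which lies where both copies of the enzyme meet in the dimer, was 0.57 ± 0.10 lower (SE, adjusted p = 0.000326). NDUFA4, first taken for a complex I subunit and now counted in complex IV, was 0.51 ± 0.14 lower (SE, adjusted p = 0.0107). COX5A, a structural subunit, did not pass any comparison, with 9.47 to 9.85 in very-late and 9.34 to 10.09 in early arrays. Nor did COX7A2, with 8.10 to 8.70 in very-late and 8.36 to 8.53 in early arrays.

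COX8A, the smallest nuclear subunit of complex IV, ran against most other members. Its early arrays read 8.76, 8.68, 9.01 and 9.07, its mid arrays 8.61, 8.69, 8.46 and 8.67, and its mid-late arrays 8.29, 8.35, 8.25 and 8.45. The late arrays read 8.40, 8.49, 8.43 and 8.61, and the very-late arrays 9.77, 10.15, 9.16 and 9.23. The very-late stage was 1.10 ± 0.16 above the late stage (2.14-fold, SE, adjusted p = 9.5e-05) and 0.70 ± 0.16 above the early stage (SE, adjusted p = 0.00361). Replicates 1 and 2 were the higher pair of very-late arrays. Without both, the difference from the early stage was 0.32 (adjusted p = 0.0502), while that from the late stage was still past the test (0.715, adjusted p = 0.000249).

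The other 4 complex IV genes are isoforms that depend on tissue or condition. COX4I2, an isoform of the regulatory subunit that is known to be raised in low oxygen and in lung, read 7.83, 8.18, 6.32 and 6.79 in early arrays, so that the early stage itself varied widely. It read 8.09, 9.04, 8.70 and 8.99 in mid, 8.72, 8.45, 8.71 and 8.63 in mid-late, 8.88, 8.72, 8.81 and 8.96 in late, and 7.71, 6.59, 8.18 and 7.95 in very-late arrays. All mid-late and late arrays were above all early and very-late arrays. The late stage was 1.56 ± 0.35 above the early stage (2.95-fold, SE, adjusted p = 0.0105) and the mid-late stage 1.35 ± 0.35 above it (SE, adjusted p = 0.0409). The mid stage was 1.42 ± 0.35 above it and did not pass (SE, adjusted p = 0.0878). The very-late stage was 1.23 ± 0.35 below the late stage (SE, adjusted p = 0.025). That call was lost without very-late replicate 2 (-0.89, adjusted p = 0.091) and without late replicate 1, 3 or 4 (adjusted p = 0.0502 to 0.0632). The call at mid-late was lost when any of 10 arrays was left out, among them early replicates 3 and 4 (1.03 and 1.19).

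NDUFA4L2, a relative of NDUFA4 that is likewise known as a gene raised in low oxygen, had a similar course at lower values. It read 5.85, 6.32, 5.10 and 4.96 in early, 6.18, 6.62, 6.59 and 6.44 in mid, 6.61, 5.91, 6.46 and 6.59 in mid-late, 5.92, 6.63, 6.71 and 6.66 in late, and 5.36, 4.96, 6.15 and 5.12 in very-late arrays. Stages overlapped in each comparison with the early stage, and differences of 0.90, 0.84 and 0.92 at mid, mid-late and late missed the threshold (adjusted p = 0.205, 0.132 and 0.0617). The very-late stage was 1.08 ± 0.29 below the late stage (SE, adjusted p = 0.0165), a call lost without very-late replicate 2 (adjusted p = 0.0572) or late replicate 3 (adjusted p = 0.0554). COX7A1, the isoform of heart and skeletal muscle, was well above the array medians in all stages. It read 8.93, 8.86, 9.38 and 9.41 in very-late arrays, against 10.17, 9.96, 10.25 and 10.35 in late and 9.98, 10.00, 10.00 and 9.58 in early arrays. It was lower in the very-late stage against both (-1.04 ± 0.16, SE, adjusted p = 0.000164, and -0.75 ± 0.16, SE, adjusted p = 0.00219). Without very-late replicates 1 and 2 the call against the early stage was lost (-0.498, adjusted p = 0.0646). COX6A2, another muscle isoform, stayed between 4.57 and 5.25 on all 20 arrays and passed no comparison. Of 4 muscle marker genes 3 were measured, and their mean log2 level was 4.14 to 4.54 over the stages. TNNT1 among them was also lower in the very-late stage, by 1.25 against early (adjusted p = 0.00537, limma) and 1.29 against late (adjusted p = 0.00591). Its very-late mean of 3.95 is close to the array medians. CKM and MB passed neither comparison.

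ATP synthase had lower genes in both of its parts, and the difference between the parts was not tested. In very-late against early, 17% of all genes and 38.4% of those with a mean of at least 8 were lower. In F1, the catalytic head, 3 of 4 measured subunits were lower in the very-late than in the early stage, and in Fo, the membrane part with its stalk, 2 of 10 were. The Fo count was near the share of all genes and below that of bright genes. The 3 lower in F1 include ATP5F1B, which has another, dimmer probe set that was higher (0.60 ± 0.18, SE, adjusted p = 0.0213), and 2 of 4 are left without it. ATP5F1D, the delta subunit of the central stalk, read 9.75, 9.46, 8.94 and 9.54 in very-late arrays, against 10.32, 10.33, 10.65 and 10.55 in early arrays, with no overlap (-1.04 ± 0.13, SE, adjusted p = 1.04e-05). ATP5F1C, the gamma subunit that turns in the head, was 0.62 ± 0.10 lower (SE, adjusted p = 0.000115). ATP5F1B, the catalytic beta subunit, was 0.51 ± 0.11 lower by its brighter probe set (SE, adjusted p = 0.00246). ATP5F1E, the epsilon subunit, differed by -0.145 and did not pass.

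In Fo, ATP5G1 and ATP5PD were lower than in the early stage, by 0.55 ± 0.12 (SE, adjusted p = 0.00222) and 0.32 ± 0.10 (SE, adjusted p = 0.0303). ATP5MC1, the entry under the newer name of ATP5G1, did not pass. Its correlation with the mean of all other members over the arrays was -0.362, against 0.879 for ATP5G1, so these entries did not run alike. ATP5PO, the oligomycin sensitivity protein that joins the stalk to the head, read 10.29, 10.71, 10.54 and 10.61 in very-late arrays, against 10.61, 10.78, 10.44 and 10.57 in early arrays. Its difference of -0.06 had an adjusted p of 0.797, and its 5 stage means lay within 0.08 of each other. ATP5MC3, which encodes the c subunit of the rotor, read 10.91, 11.12, 10.57 and 10.88 in very-late arrays, against 10.67, 11.07, 11.26 and 11.03 in early arrays. ATP5MG read 12.04, 12.25, 11.72 and 11.83 in very-late arrays, against 11.87, 12.05, 11.99 and 11.71 in early arrays. For both, the stages overlapped and the test was not passed. ATP5MC2 and ATP5PB are dim, with means of 4.93 and 3.76, so a change in them may not be measurable. ATP5IF1, the inhibitor that keeps the enzyme from running backwards, was 0.63 ± 0.13 lower in the very-late than in the early stage (SE, adjusted p = 0.00132). Its dimmer probe set differed by -0.191 and did not pass (adjusted p = 0.173, limma). Nor did that probe set pass at late against early (-0.181, adjusted p = 0.291).

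Before the very-late stage, fewer members differed from the early stage. At mid none of the 65 passed in limma, against 0.188% of all probe sets higher and 0.175% lower, and 3 were higher and 6 lower at an unadjusted p under 0.05. At mid-late 2 were higher (UQCRC2 and COX4I2) and 1 lower (NDUFAF3, -0.49 ± 0.12, SE, adjusted p = 0.0332), against 1.62% and 2.1% of all probe sets. This count of 3 fell to 0 without early replicate 3, early replicate 4, or mid-late replicate 1, 3 or 4, and was 5 without very-late replicate 2. At late the same 2 genes were higher and 12 members were lower, against 3.61% and 3.97% of all probe sets, with a median difference of -0.18 over the 65. Of genes with a mean of at least 8, 21.2% of the 52 members and 17.8% of all such genes were lower at late, so the members' share was near that of other bright genes.

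The 12 members already lower at late came from every complex but II and IV. NDUFAF3, an assembly factor, read 7.95, 8.09, 8.32 and 8.28 in late arrays, against 8.57, 8.85, 9.12 and 8.86 in early arrays (-0.69 ± 0.12, SE, adjusted p = 0.00191). ATP5F1D read 9.78, 9.79, 9.87 and 9.91 in late arrays, all below the early arrays (-0.63 ± 0.13, SE, adjusted p = 0.00521). NDUFS4 (-0.57) and NDUFV2 (-0.54) also had no overlap between stages. UQCRQ (-0.50) and ATP5IF1 (-0.495) were next in size. NDUFS3, NDUFA6, NDUFAF2, ATP5PD, CYC1 and NDUFC1 had differences of -0.46 to -0.345. The call of CYC1 at late was lost without any 1 of 15 arrays, that of ATP5IF1 without early replicate 2, 3 or 4 or late replicate 1 or 2, and that of UQCRQ without early replicate 3. The count at late depended on single arrays: it was 5 without early replicate 3, 7 without late replicate 2, 8 without early replicate 2 or 4, 9 without late replicate 1 or 3, and 22 without very-late replicate 2. Fitted without any very-late array, 26 members passed at late, 6 of them higher and 20 lower, against 5.36% of all probe sets higher and 4.95% lower in that fit. They included all 14 of the fit on 20 arrays. Most members are bright, and the share among genes with a mean of at least 8 was not counted in that fit. The 6 higher were UQCRC2, COX4I2, NDUFA4L2 (0.92, adjusted p = 0.0373), ATP5MG (0.33, adjusted p = 0.037), SDHB and SDHC, and COX8A was among the lower (-0.395, adjusted p = 0.00916). The stages next to each other from mid to late showed no call among the members. Mid-late against mid had 0 of 65, against 0% of all probe sets higher and 0.0114% lower, and 4 were higher and 2 lower at an unadjusted p under 0.05. Late against mid-late had 0 of 65, against 0.00379% higher and 0.00759% lower, and 9 were lower and 0 higher at an unadjusted p under 0.05. The share of all genes at an unadjusted p under 0.05 was not counted, so these unadjusted counts have no background to be read against.

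Some genes gave different answers by probe set. Of 17 further probe sets of members with a mean of at least 5, 11 belonged to members called in very-late against early. Of these 11, 4 passed in the same direction and 2 passed in the opposite direction. The other probe set of NDUFV2 read 9.25, 8.48, 9.02 and 9.24 in very-late arrays, against 8.11, 8.34, 7.97 and 8.10 in early arrays (0.87 ± 0.16, SE, adjusted p = 0.000666), while the brighter probe set was 0.86 lower. The other probe set of ATP5F1B was 0.60 ± 0.18 higher (SE, adjusted p = 0.0213), while the brighter was 0.51 lower. The direction of both genes is therefore uncertain. NDUFA6 had 3 further probe sets of that brightness: they were lower in very-late against early by 1.06, 0.77 and 0.71, the last not past the test, but at late the dimmest of them was 1.14 higher than in the early stage (adjusted p = 0.0237) where the brightest probe set was 0.45 lower. The further probe set of ATP5F1D was 0.49 lower in very-late against early and did not pass (adjusted p = 0.132).

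**Figure D4:**
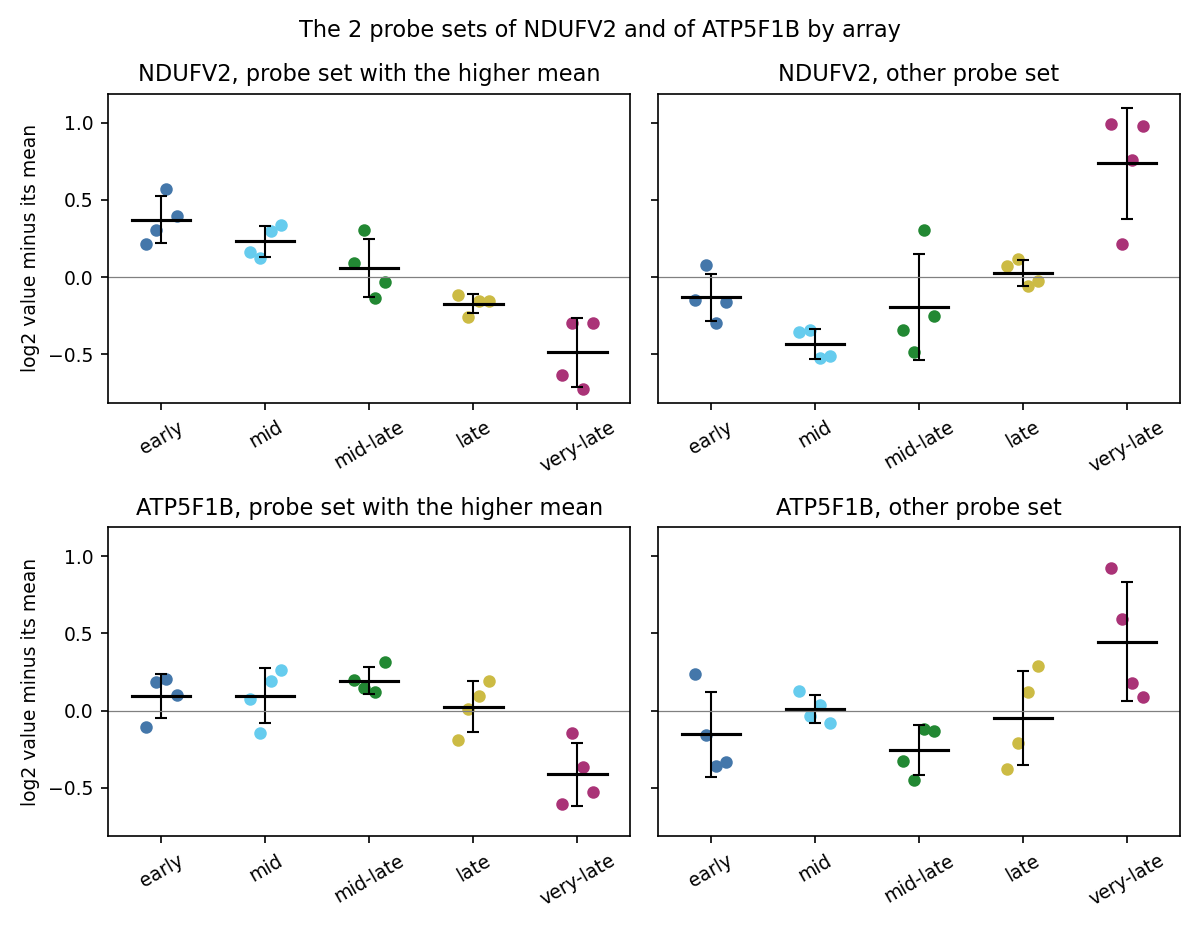
Log2 values of both probe sets of NDUFV2 (top) and ATP5F1B (bottom) on each array, each minus its own mean over the 20 arrays, by stage (black bars are stage mean and SD, n = 4). In the very-late stage the probe sets on the left are at their lowest and those on the right at their highest.

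The nuclear members were set beside probe sets of the mitochondrial genome, which split the arrays. Of 6 probe sets whose array identifiers name them as mitochondrial, 4 divided the arrays with no overlap into 7 arrays with a mean log2 value of 7.02 to 8.93 (early replicate 4, all 4 mid, mid-late replicate 1 and very-late replicate 2) and 13 arrays at 11.50 to 12.45. The split runs across stages. The other two probe sets did not follow it. One of them, with values between 11.07 and 12.63, was lower in very-late against late (-0.77 ± 0.17, SE, adjusted p = 0.00372) and against early (-0.52 ± 0.17, SE, adjusted p = 0.0368), and higher at mid-late against early (0.69 ± 0.17, SE, adjusted p = 0.0275). The second passed no comparison. Within the early stage the level of the 65 members was 0.05 on the low array, against 0.02 to 0.22 on the 3 others. Within mid-late it was 0.07 on the low array, against 0.07 to 0.17. Within very-late it was -0.24 on the low array, against -0.45 to -0.32, so there the low array had the highest nuclear level. With a term for the split in the fit, 41 members passed in very-late against early and 30 in very-late against late, close to 41 and 32 without it.

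**Figure D5:**
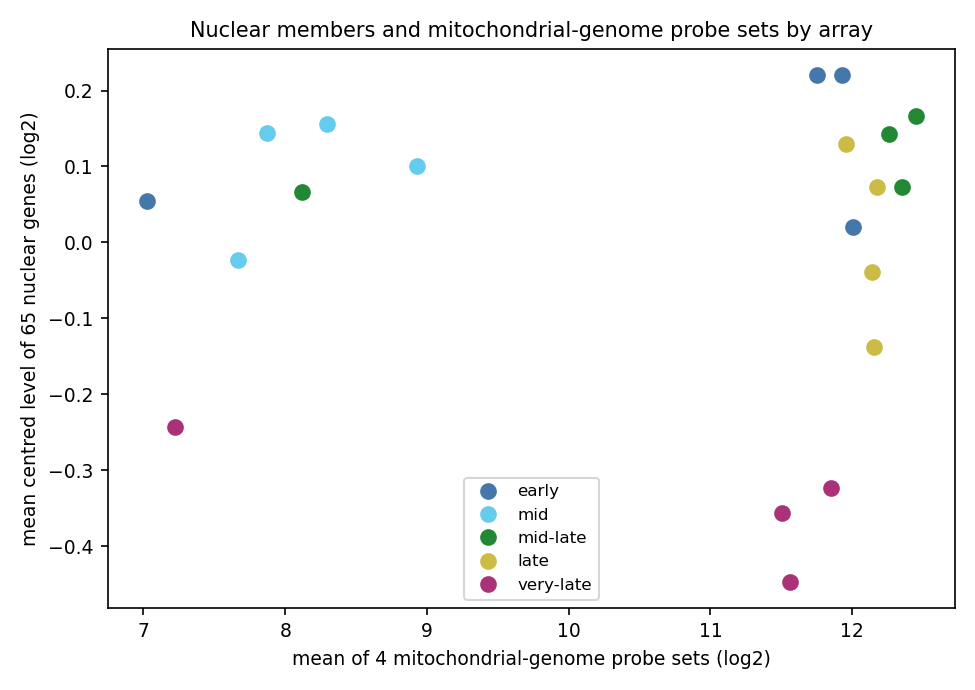
Each point is an array, coloured by stage: the x axis is the mean log2 value of 4 mitochondrial-genome probe sets and the y axis the mean centred log2 level of the 65 nuclear genes. The 7 arrays on the left lie between -0.24 and 0.16 and the 13 on the right between -0.45 and 0.22, with the very-late arrays lowest on both sides.

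Correlations between members are given as a description, over arrays that share their stages. The median correlation over the 20 arrays was 0.53 for 465 pairs within a complex and 0.36 for 1615 pairs between complexes, and 0.33 and 0.27 once stage means were removed. NDUFS1 (r = 0.946), UQCRQ (0.939) and NDUFA7 (0.936) were closest to the mean of all other members over the 20 arrays. NDUFV3 (-0.688), COX8A (-0.663) and ATP5MC1 (-0.362) were farthest from it.

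Other mitochondrial genes were counted in the same comparisons. Over all 14132 genes, 17% were lower and 11.9% higher in very-late against early, and 11.2% and 10.2% in very-late against late. Of genes with a mean of at least 8, 38.4% were lower and 14.2% higher against early, and 28.4% and 14.7% against late. Several of the lists below hold many bright genes. Of 24 measured genes for the assembly and maturation of the chain, 15 were lower and none higher in very-late against early, with a median of -0.515. TTC19, which takes part in complex III maturation, read 6.91, 6.80, 6.62 and 6.69 in very-late arrays, against 7.56, 8.33, 7.87 and 8.37 in early arrays (-1.27 ± 0.23, SE, adjusted p = 0.000456). UQCC3 (-0.93) and COX19 (-0.92) followed. Of 10 measured regulators of mitochondrial biogenesis, 1 was higher and 2 lower, shares near those of all genes: GABPA by 0.27 at dim values, TWNK, the mitochondrial DNA helicase, by 0.38, and LONP1, a protease of the mitochondrial matrix, by 1.55 ± 0.18 (SE, adjusted p = 6.62e-06). PPARGC1A, a coactivator of mitochondrial genes, was between 3.12 and 3.67 on all arrays, below or near the lowest array median. Of 10 citric acid cycle genes 5 were lower and none higher, led by DLAT (-1.24), MDH2 (-1.01) and SUCLA2 (-0.91). Of 8 genes of the outer membrane and of protein import, 4 were lower and none higher, led by HSPA9 (-1.02), TIMM23 (-0.675) and PHB2 (-0.59).

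Glycolysis genes were counted against both earlier stages, and the shares of all genes and of bright genes given above apply to them too. In very-late against early, 4 of 14 genes were lower and none higher, led by GPI (-1.96 ± 0.22, SE, adjusted p = 4.43e-06), ALDOC (-1.67) and HK2 (-1.02). In very-late against late, 2 were lower (GPI and HK2) and 4 higher, led by LDHA, which makes lactate, with 10.62, 11.95, 10.45 and 10.81 in very-late arrays, against 9.86, 10.28, 10.17 and 10.11 in late arrays (0.85 ± 0.22, SE, adjusted p = 0.0135). PFKP (0.45) and SLC2A1 (0.35) followed. A list of 6 genes tied to mitochondrial steroid synthesis, 5 of them measured, included wider differences than any member. Of the 5, 4 were lower in very-late against early, with HSD3B2 at -5.95, STAR at -4.05 and FDXR at -3.47. The enzyme of cholesterol side-chain cleavage is not among the 5. The 4 steroidogenic markers, which share STAR and HSD3B2 with that list, were all lower against early and against late, and of the 8 macrophage markers 8 were higher against early and 5 against late. Among markers of other cells in very-late against early, 1 of 7 endothelial genes was higher, 2 of 5 fibroblast genes were lower, the 1 measured T cell gene was higher, 1 of 3 muscle genes was lower, and 0 of 1 pericyte and 0 of 2 erythrocyte genes passed. How far these shifts in cell markers bear on the lower level of the respiratory chain genes was not tested.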

How the data were processed

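The authors deposited log2 values, 1 per probe set and array. The submitters' processing notes name RMA. Their range, 2.48 to 14.28, gave the unit. Version, chip definition and filters are not given in the sources used here. RNA was Trizol-extracted and column-purified per the labels. Values were used as they stand. Of 52865 probe sets 158 controls were left out. limma 3.58.1 in R 4.3.3 fitted 5 stage means to 20 arrays (15 residual and 2.75 prior degrees of freedom, no filter on dim probe sets), with two-sided tests, Benjamini-Hochberg adjustment over 52707 probe sets and a threshold of 0.05. Precision is limited by how many arrays there are. The series' design text calls the samples biological replicates.

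Symbols came from the platform annotation: 24956 probe sets had a single symbol, 361 several and 27390 none. Of 14132 genes each was represented by the probe set with the highest mean. The members and gene lists were chosen with earlier results of these data known. Named were up to 6 rises and 6 falls per comparison past the test, the 10 widest ranges, 33 fixed genes (26 measured) and up to 3 genes per list. Other members that the text names, such as NDUFS3, NDUFS6, NDUFS7, NDUFA6, NDUFAF2, NDUFAF6, NDUFAF7, NDUFB2, NDUFB10, NDUFC1, ATP5MC1, ATP5MG, ATP5F1C, ATP5F1E, ATP5PB and ATP5PD, were chosen after their values were seen. The procedure was tested on simulated data. Same-numbered arrays of different stages did not deviate together (median r = -0.02, 6 of 40 pairs above 0.1), so numbers were not taken as pairs. No sequence was used.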

Additional observations from a re-analysis of the deposited data

Results flagged for a closer look

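The check covered 280 groups of 4 arrays, in 5 stages, for 37 named members and for the levels of sets of members. These sets were all members, each complex, its parts, all subunits, and the subunits without isoforms and inhibitor. Some sets held the same genes, so not all groups were distinct. In 10 groups the highest or lowest array was far from its neighbours, by Dixon's criterion for 4 values. Chance marks about 1 in 20 such groups. Very-late replicate 1 was the lowest for UQCRC2 (8.31, nearest 9.26) and for NDUFA13 (8.24, nearest 9.68). Mid replicate 1 was the lowest for NDUFS1 (9.75, nearest 9.99) and ATP5PO (10.21, nearest 10.61). The lowest array of its stage was late replicate 1 for NDUFA4L2 (5.92, nearest 6.63), early replicate 4 for COX7A1 (9.58, nearest 9.99), mid-late replicate 4 for the dim NDUFV3 (4.30, nearest 4.48) and early replicate 1 for the level of the F1 subunits (0.09, nearest 0.26). The highest of its stage was mid replicate 3 for SDHC (8.80, nearest 8.44) and early replicate 3 for NDUFV3 (4.24, nearest 4.18).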

How the results depend on the processing

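Over all settings with all 5 stages, very-late against early gave 34 to 44 members against 41, and the F test 33 to 46 against 43. Very-late against late moved from 32 to 18 at an adjusted p under 0.01 and to 20 on the 8 arrays of the 2 stages. With cyclic loess the 2 very-late counts were 35 (4 higher, 31 lower) and 27 (4 higher, 23 lower), and the members' medians moved from -0.46 to -0.31 and from -0.32 to -0.20. On averaged probe sets per gene these medians were -0.323 and -0.218. Mid gave 0 members and 1 with probe sets of a mean of at least 5 or array weights. It gave 2 without very-late replicates 1 and 2 together, and 3 without all very-late arrays, a setting added after seeing the data. Those 3 were UQCRB (0.584), COX4I2 (1.42) and ATP5MC1 (-0.456). As background, that fit called 0.617% of the 52707 probe sets upward and 0.508% downward at mid. Mid-late gave 3 members and 6 with array weights, 0 at an adjusted p under 0.01 and 5 on its 8 arrays. It gave 7 without very-late replicates 1 and 2, and likewise 7 with no very-late array. The latter 7 were UQCRC2 (0.879), COX4I2 (1.35), UQCRB (0.438), COX8A (-0.543), NDUFAF3 (-0.488), ATP5MC1 (-0.39) and NDUFS3 (-0.297). Background calls at mid-late in that fit were 2.79% upward and 3.28% downward. The share among bright genes was not counted there. Late gave 14 members and 4 at an adjusted p under 0.01, 23 without very-late replicates 1 and 2, and 26 with no very-late array. With the replicate number as a block, mid-late gave 1 member, and the other counts were within 1.5 times of those without the block, 41 in very-late against early. Leaving out each array in turn gave 37 to 44 in very-late against early, 23 to 32 in very-late against late, 5 to 22 at late, 0 to 5 at mid-late, 0 to 1 at mid (1 without early replicate 2, very-late replicate 2 or very-late replicate 4) and 38 to 46 in the F test. When each gene's probe sets were averaged, NDUFV2 in very-late against early (0.004), ATP5F1B in very-late against early (0.045) and against late (0.027) and ATP5F1D in very-late against late (0.074) changed sign, by averaging in a probe set that went the other way. Of 60 named gene and comparison pairs, 31 kept direction and call in every setting, and over all 1871 alternative values 137 lost the call. The cause of these moves was not otherwise tested. Dim members and the number of arrays limit what could be called.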
